A study of Rattus norvegicus with 8 samples.

Results

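The genes described here are 10 genes of the signalling chain that runs from the insulin and insulin-like growth factor (IGF) receptors to the glucose carrier Glut4, namely Insr, Igf1r, Irs1, Irs2, Pik3r1, Pik3ca, Akt1, Akt2, Foxo1 and Slc2a4. They are 10 of 17309 genes measured. They were chosen by name as members of 1 pathway, after the strain difference of these data was known and because Irs2 had risen in the strain PD5. The values that chose them were the log2 gene values of 4 PD5 and 4 SHR rats, so the strain differences of the 10 genes are given as a description and support nothing further.

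Expression arrays that cover whole transcripts were run on the left ventricle of 8 male rats, 1 array per rat. The rats were 2 months old, ate standard chow and received no treatment. SHR is the spontaneously hypertensive rat, an inbred model of high blood pressure. PD5 is a minimal congenic strain, in which a small foreign chromosome segment sits on the SHR background, so both groups share the rest of that background. How far the segment reaches is not stated in the labels. The 4 PD5 animals carry the numbers 207, 209, 210 and 212, and the 4 SHR animals 213, 215, 218 and 219. Strain and animal number cannot be told apart, and the labels name no litter.

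Insulin and IGFs bind receptor tyrosine kinases that phosphorylate docking proteins of the insulin receptor substrate (Irs) family. Phosphorylated Irs proteins recruit phosphoinositide 3-kinase (PI3K), whose lipid product activates the kinase Akt. Akt then drives Glut4 carriers to the cell surface, which feeds glucose into heart and skeletal muscle, and it keeps FoxO transcription factors out of the nucleus. Irs1 and Irs2 overlap in function, and in mice the heart uses both.

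Promoters were looked up in RefSeq (GRCr8 assembly), whose table held 8 of the 10 genes, without Irs2 and Slc2a4. The 250 bases before the transcript start were searched on both strands for 7 motifs: the cAMP response element TGACGTCA and its shorter core TGACG, the FoxO site GTAAACA, the insulin response element TGTTTTG, the E-box CACGTG, the Nr4a monomer site AAAGGTCA and the palindromic glucocorticoid response element. TGACG lies within TGACGTCA, and CACGTG reads the same on both strands. The promoters of Insr and Pik3r1 are printed 5′ to 3′ on the gene's strand, Insr because it held both a FoxO site and a TGACG core, and Pik3r1 because it was the gene whose PD5 animals all lay below the SHR animals. Capitals mark the motif matches. The Insr promoter lies at chr12:6128804-6129053 (minus strand) and the Pik3r1 promoter at chr2:34697661-34697910 (minus strand).
Insr: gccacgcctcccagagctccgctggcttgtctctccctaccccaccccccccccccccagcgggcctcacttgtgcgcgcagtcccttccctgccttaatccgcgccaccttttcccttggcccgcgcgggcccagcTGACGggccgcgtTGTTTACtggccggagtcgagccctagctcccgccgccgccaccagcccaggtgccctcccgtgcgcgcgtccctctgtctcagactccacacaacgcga
Pik3r1: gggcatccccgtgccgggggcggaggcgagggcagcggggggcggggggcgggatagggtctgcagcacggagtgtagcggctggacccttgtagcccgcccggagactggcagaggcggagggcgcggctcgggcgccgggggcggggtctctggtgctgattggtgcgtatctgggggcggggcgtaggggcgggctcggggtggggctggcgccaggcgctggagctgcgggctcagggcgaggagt

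In Insr the core TGACG began 113 bases before the start and the FoxO site, on the opposite strand, spanned bases 100 to 94 before it. Pik3ca held the same 2 motifs, and Igf1r held an E-box 31 to 26 bases before its start. The promoters of Irs1, Pik3r1, Akt1, Akt2 and Foxo1 held none of the 7 motifs in this window. Over all 33469 promoters of the table, 3.21% held GTAAACA, 18.2% TGACG, 5.59% CACGTG, 5.46% TGTTTTG, 1.59% TGACGTCA and 1.24% AAAGGTCA, and 4 promoters held the glucocorticoid element. These matches describe the letters of the reference strain, and the array does not read promoter sequence.

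Between 2 and 23 probe sets read each of the 10 genes, and a gene value was the mean of its probe sets on the log2 scale, where a step of 1 is a doubling. Array medians ranged from 6.93 to 6.98. Levels of different genes come from different probes and were not compared with each other. Cardiomyocyte markers gave a mean log2 value of 12.38 to 12.46 in PD5 and 12.36 to 12.46 in SHR. Endothelial markers lay at 10.19 to 10.28 and 10.16 to 10.29, with 4 of 6 measured genes above 0 and a median of 0.03. Of these 6 genes, 2 had an unadjusted p under 0.05 in limma, as did 5.68% of all genes. Adipocyte markers were at 7.31 in PD5 210, against 5.98 to 6.17 in the other 7 animals. Macrophage markers lay at 7.90 to 7.93 in PD5 and 7.96 to 8.24 in SHR, with 5 of 6 genes below 0 in the strain difference and a median of -0.09. Mesothelial markers lay at 6.19 to 6.58 in PD5 and 6.36 to 7.27 in SHR, with 5 of 5 below 0 and a median of -0.31. Atrial markers lay at 8.66 to 9.60 in PD5 and 8.05 to 9.84 in SHR, with 5 of 5 measured genes above 0 and a median of 0.28. SHR 219 alone set the top of the SHR range in the macrophage, mesothelial and atrial markers. The other SHR animals lay at 7.96 to 8.01 in macrophage, 6.36 to 6.73 in mesothelial and 8.05 to 8.73 in atrial markers. In heart tissue, fewer cells of a type and less RNA per cell cannot be told apart.

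**Figure D1:**
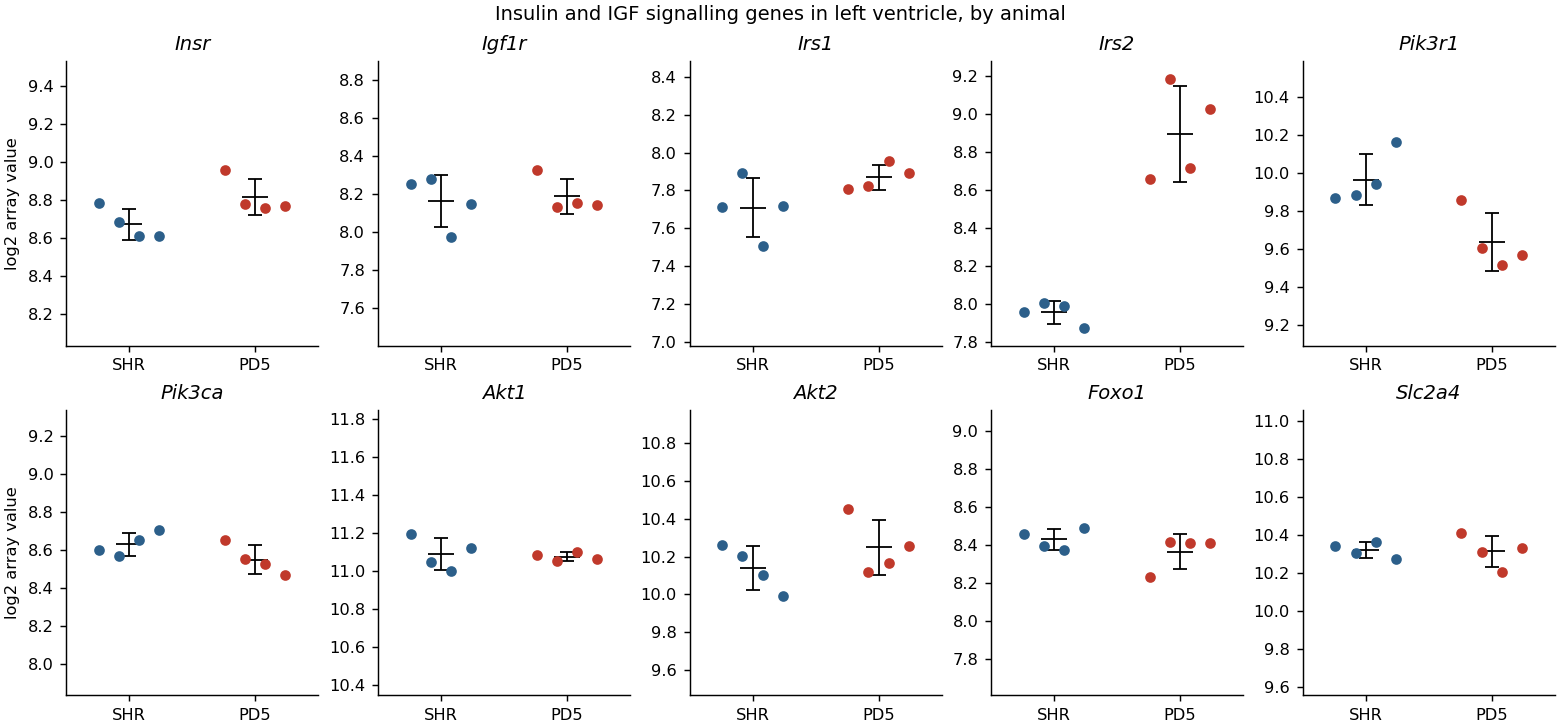
Log2 array values of the 10 genes, 1 panel per gene and 1 point per animal, with SHR in blue and PD5 in red; the black marks give mean and SD (n = 4), and every panel spans the same 1.5 log2 units. In Irs2 the 4 PD5 points lie above the 4 SHR points, in Pik3r1 they lie below, and in the other 8 genes the strains overlap.

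Irs2, the docking protein that several hormone and fasting signals are known to adjust at the level of transcription in liver and islets, was the member with the widest strain difference. Its log2 value was 8.66 in PD5 207, 9.19 in PD5 209, 8.72 in PD5 210 and 9.03 in PD5 212. In SHR it was 7.96 in animal 213, 8.01 in 215, 7.99 in 218 and 7.87 in 219. Every PD5 animal lay above every SHR animal, and the PD5 animals were the more scattered group. PD5 averaged 8.90 ± 0.25 and SHR 7.96 ± 0.06 (SD over 4 animals each). PD5 was thus higher by 0.94 in log2 units (SE 0.12, 95% interval 0.68 to 1.20), or 1.92-fold.

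Irs2 was selected on this difference, whose adjusted p over all genes was 0.0404 in limma. It was 1 of 9 genes past the threshold of 0.05, which is 0.052% of the 17309 genes, and the other 9 members did not pass. That call was lost when any 1 of the 8 arrays was left out, with adjusted p from 0.0555 (without PD5 207) to 0.202 (without SHR 213), while the difference stayed between 0.84 (without PD5 209) and 1.02 (without PD5 207). Both Irs2 probe sets showed the difference. The first was higher by 0.99 and the second by 0.89 on the log2 scale, and in each the strains did not overlap. With 2 probe sets, Irs2 rests on fewer than any other member.

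Irs1, the other Irs protein of heart muscle, had log2 values of 7.81, 7.82, 7.95 and 7.89 in PD5 207, 209, 210 and 212. The SHR values were 7.71 in 213, 7.89 in 215, 7.51 in 218 and 7.72 in 219. The strains overlapped through SHR 215, which lay with the PD5 animals, and SHR 218 was the lowest of the 8. The log2 difference was 0.16 (95% interval -0.03 to 0.36), and 0.10 without SHR 218. All 3 Irs1 probe sets were higher in PD5, by 0.15 to 0.19.

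Insr encodes the insulin receptor. Its log2 values were 8.96, 8.78, 8.76 and 8.77 in PD5 207, 209, 210 and 212, and 8.78, 8.68, 8.61 and 8.61 in SHR 213, 215, 218 and 219. The groups overlapped through SHR 213, which sat just above the lower 3 PD5 animals. The log2 difference was 0.14 (95% interval -0.02 to 0.31), or 0.10 without PD5 207. Of 23 Insr probe sets 18 were higher in PD5 and 5 lower, from -0.19 to 0.52. Among all probe sets that name 1 gene, 50.5% were lower in PD5. In 4 of the 23, PD5 lay above SHR without overlap. The median over probe sets instead of their mean gave 0.25 for the gene.

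Igf1r, the IGF-I receptor, gave 8.33, 8.13, 8.15 and 8.14 on the log2 scale in PD5, against 8.25, 8.28, 7.97 and 8.15 in SHR, in the order of animal numbers. SHR 218 was the lowest animal and PD5 207 the highest, with the others in between. The log2 difference was 0.03 (95% interval -0.17 to 0.22), and it was -0.04 without SHR 218 and -0.02 without PD5 207. Its 22 probe sets were split, 13 higher and 9 lower in PD5.

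**Figure D2:**
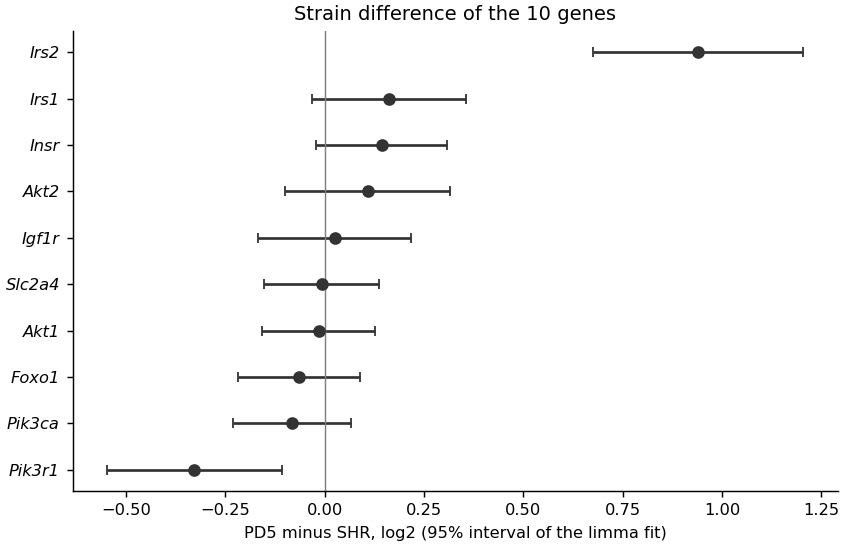
PD5 minus SHR difference of each of the 10 genes in log2 units, with the 95% interval of the limma fit (n = 4 per strain), ordered by size. Irs2 stands at 0.94 and Pik3r1 at -0.33, while the other 8 genes lie between -0.08 and 0.16 with intervals that include 0.

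Pik3r1 encodes the p85 alpha regulatory subunit of PI3K, through which the enzyme docks on Irs proteins, and shorter forms of the same subunit. Its log2 value was 9.86 in PD5 207, 9.61 in PD5 209, 9.52 in PD5 210 and 9.57 in PD5 212. In SHR it was 9.87 in animal 213, 9.89 in 215, 9.94 in 218 and 10.16 in 219. All PD5 animals lay below all SHR animals, with PD5 207 at 9.86 next to SHR 213 at 9.87. PD5 averaged 9.64 ± 0.15 and SHR 9.96 ± 0.14 (SD over 4 animals each). PD5 minus SHR was -0.33 on the log2 scale (SE 0.10, 95% interval -0.55 to -0.11). Pik3r1 did not pass over all genes (adjusted p = 0.609 in limma). With 1 array left out the difference lay between -0.26 (without SHR 219) and -0.40 (without PD5 207). It was -0.22 without both PD5 210 and SHR 219.

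Across all genes, PD5 lay above SHR without overlap in 1.58% and below it without overlap in 1.88%. Among the 10 members, 1 gene did the first and 1 the second. Because the members were chosen on this contrast, nothing is read from these counts. The same holds for single probe sets of Irs2, Insr and Pik3r1 without overlap, for which no share over all probe sets is given.

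The Pik3r1 probe sets differed in the size of the strain difference. All 19 probe sets were lower in PD5, from -0.06 to -1.11, as were 50.5% of all probe sets that name 1 gene. Of these, 4 dropped by more than 0.5, and they were neighbours in the array's numbering, the probe sets 9 to 12 of 19. Averaged over these 4, the log2 value was 7.60 in PD5 207, 7.09 in 209, 7.03 in 210 and 7.22 in 212, against 7.84, 7.81, 8.10 and 8.33 in SHR 213, 215, 218 and 219. In this mean the strains did not overlap, and the log2 difference was -0.79, a 1.73-fold lower value in PD5, or -0.69 to -0.91 with 1 array left out. Taken singly, 3 of the 4 overlapped between strains, and probe set 12 did not. Outside the 4, probe set 5 fell just short of a drop of 0.5, at -0.475. In it the strains did not overlap either, with PD5 at 8.75 to 9.17 and SHR at 9.34 to 9.61. Probe set 11, the one at -1.11, was at -0.65 without PD5 210, and probe set 9, at -0.54, was at -0.34 without PD5 212. Probe set 11 ran from 4.35 in PD5 210 to 7.75 in SHR 218. Over the other 15 probe sets the difference was -0.21, with PD5 207 at 10.46 inside the SHR range of 10.41 to 10.65. The 4 were dimmer on average, at 7.23 in PD5 and 8.02 in SHR, against 10.28 and 10.48 over the other 15. The 4 probe sets were singled out after their values were seen, and the files used here do not tell which exons or transcripts they read. The brightest Pik3r1 probe set alone gave -0.15.

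**Figure D3:**
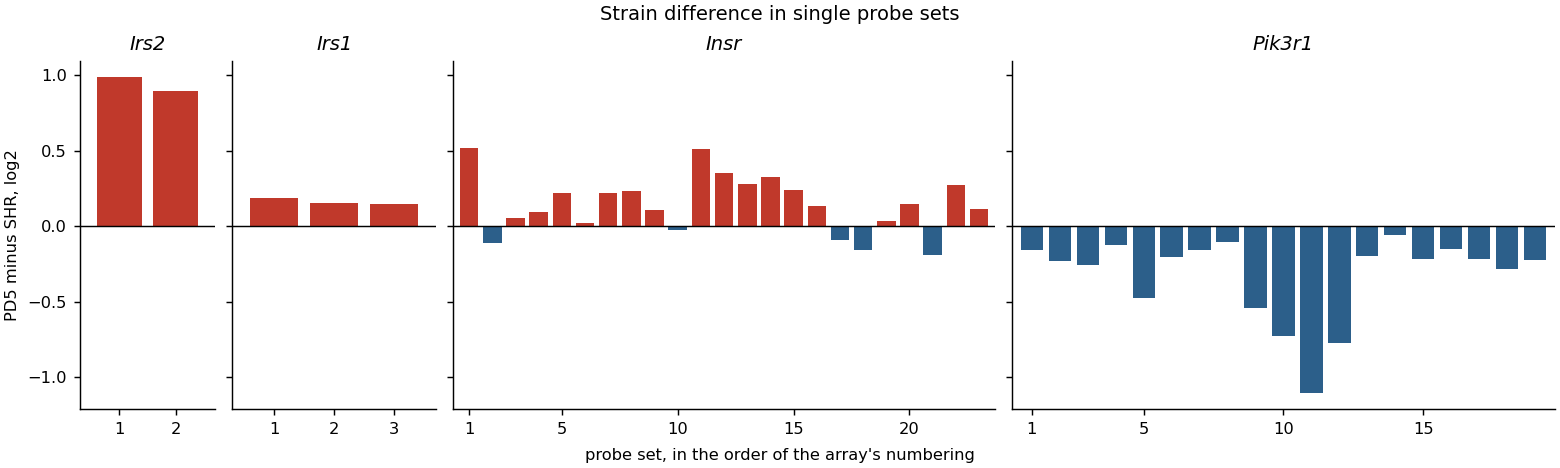
PD5 minus SHR difference (log2) of every probe set of Irs2, Irs1, Insr and Pik3r1, as bars in the order of the array's probe set numbers, red where PD5 was higher and blue where it was lower. The Irs2 bars reach 0.99 and 0.89, and Pik3r1 has 19 bars below 0 with the deepest 4, down to -1.11, side by side.

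Pik3ca encodes p110 alpha, the catalytic PI3K subunit that works under insulin receptors in muscle. The PD5 animals gave log2 values of 8.65, 8.55, 8.53 and 8.47, and the SHR animals 8.60, 8.57, 8.65 and 8.71, in the order of animal numbers. The strains overlapped, since PD5 207 lay above SHR 213, 215 and 218. The log2 difference was -0.08 (95% interval -0.23 to 0.07), with 4 of 5 probe sets lower in PD5.

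Akt1 and Akt2 encode the Akt kinases, of which Akt2 is the form tied most closely to glucose uptake. Akt1 was at 11.08, 11.05, 11.10 and 11.06 in PD5 and at 11.19, 11.05, 11.00 and 11.12 in SHR. Its PD5 values fell inside the SHR range, with a log2 difference of -0.02 (95% interval -0.16 to 0.13). Akt2 was at 10.45, 10.12, 10.17 and 10.25 in PD5 and at 10.26, 10.20, 10.10 and 9.99 in SHR, a log2 difference of 0.11 (95% interval -0.10 to 0.32). PD5 207 was the highest of the 8 animals in Akt2, and without it the difference was 0.04.

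At the ends of the chain stand the FoxO factor that Akt inhibits and the glucose carrier that it mobilises. Foxo1 was at 8.23, 8.41, 8.41 and 8.41 in PD5 and at 8.46, 8.39, 8.38 and 8.49 in SHR. PD5 207 lay below the other 7 animals, and the log2 difference was -0.06 (95% interval -0.22 to 0.09), or -0.02 without it. Slc2a4, which encodes Glut4, was at 10.41, 10.31, 10.21 and 10.33 in PD5 and at 10.34, 10.31, 10.36 and 10.27 in SHR. Its SHR values all fell inside the PD5 range, with a log2 difference of -0.01 (95% interval -0.15 to 0.14).

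The 10 genes thus divided into Irs2 above, Pik3r1 below and 8 genes with overlapping strains, and their median log2 difference was 0.01. Over all 17309 genes the median difference was 0.00.

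PD5 207 was the highest PD5 animal in 6 of the 10 genes, while it was so in 24.9% of all genes. The 6 genes were Insr, Igf1r, Pik3r1, Pik3ca, Akt2 and Slc2a4. It was the highest PD5 animal in 10 of 11 Akt2 probe sets, 15 of 19 in Pik3r1, 13 of 22 in Igf1r, 11 of 23 in Insr, 4 of 13 in Slc2a4 and 2 of 5 in Pik3ca. It was so in 2 of 10 in Akt1, 1 of 5 in Foxo1 and 0 of 3 in Irs1, and in 23.7% of all probe sets that name 1 gene. In Irs2 it was the lowest PD5 animal. Within SHR, animal 219 was highest in 15 of 19 Pik3r1 probe sets, against 30.1% of such probe sets.

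The rest of the pathway was followed in 6 lists ordered by role, which held 103 genes besides the 10, of which 93 were measured. In limma 0 of the 93 rose and 0 fell, where 0.052% of all genes passed. At an unadjusted p under 0.05 there were 9 of the 93, 4 higher and 5 lower in PD5, or 9.68%, beside 5.68% of all genes. With a trended robust variance model 2 of the 93 passed, Txnip and Pdk4, both lower in PD5, and without moderation of the variances 0 did. The median log2 difference of the 93 was -0.01.

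Among the ligands and binding proteins, 8 of 13 had differences above 0 and the median was 0.03. Igf2, the fetal IGF, was at 8.44 to 8.45 in PD5 and at 8.21 to 8.31 in SHR, a log2 difference of 0.18 (SE 0.06) with an adjusted p of 0.679 in limma. Igf1 was at 10.10 to 10.16 in PD5 and 9.98 to 10.10 in SHR, with a difference of 0.07. Both ligands had PD5 animals above all SHR animals, and neither passed. Igfals, which stabilises circulating IGF complexes, was at -0.23 with overlapping strains.

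Among the other docking proteins and receptor brakes, 16 of 18 listed genes were measured, 7 above and 9 below 0, with a median of -0.02. Socs3, a cytokine-induced protein that blocks the insulin receptor and marks Irs proteins for breakdown, was at 7.09, 7.15, 7.30 and 7.06 in PD5 and at 6.63, 6.97, 6.78 and 6.78 in SHR. The PD5 animals lay above the SHR animals, with a log2 difference of 0.36 (SE 0.09) and an adjusted p of 0.469 in limma. Socs3 rests on 1 probe set. Grb2 and Gab1, adaptors that lead to Ras and PI3K signalling, were at 0.12 and 0.13 with overlapping strains.

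In the other PI3K and Akt genes, 8 of 17 measured genes were above 0 and the median was 0.00. Pik3r3, which encodes the p55 gamma regulatory subunit of PI3K, was at 8.05, 8.20, 8.29 and 8.25 in PD5 and at 8.10, 7.98, 7.76 and 7.89 in SHR. Its log2 difference was 0.26 (SE 0.09, adjusted p = 0.753 in limma), on the opposite side of 0 from that of Pik3r1. PD5 207 and SHR 213 overlapped. Phlpp2, an Akt phosphatase, was at -0.18 and Inpp5d, a lipid phosphatase of blood cells, at -0.12.

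Akt effectors and glucose transport genes had a median of 0.01 over 19 measured genes of 23 listed. Slc2a3, which encodes the glucose carrier Glut3, was at 7.35, 7.35, 7.43 and 7.28 in PD5 and at 7.13, 7.07, 7.10 and 7.03 in SHR. The strains did not overlap, and the log2 difference was 0.27 (SE 0.06, adjusted p = 0.356 in limma). Tsc2, an inhibitor of mTOR complex 1, was at -0.07 and Rps6kb1, an S6 kinase, at -0.09.

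Of the FoxO factors and FoxO target genes, 13 of 19 measured were below 0, as were 50.1% of all genes, and the median was -0.04. The list held 5 of the 9 unadjusted p-values under 0.05, and 0 of its genes passed in limma. Txnip, which restrains glucose uptake, was at 11.23, 11.04, 10.77 and 11.02 in PD5 and at 11.72, 11.56, 11.51 and 11.73 in SHR. Every PD5 animal lay below every SHR animal, with a log2 difference of -0.61 (SE 0.10, adjusted p = 0.128 in limma and 0.0106 with the trended robust model). Pdk4, a kinase that shuts off pyruvate oxidation, was at 10.38, 10.36, 10.66 and 10.36 in PD5 and at 11.14, 10.82, 11.02 and 11.34 in SHR. Its strains did not overlap either, and the log2 difference was -0.64 (SE 0.12, adjusted p = 0.197 in limma and 0.0473 with the trended robust model). Cited2 was at -0.29 with overlapping strains. Irs2 is itself described as a FoxO target in liver, and its difference was above 0, as were those of 6 of the 19 genes. A part of FoxO factors in the Irs2 difference was not tested.

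Factors described in other cells as acting on Irs2 transcription had a median of -0.03 over 11 genes, and 0 of them had an unadjusted p under 0.05. Crtc2, a coactivator of CREB, was at -0.10, the glucocorticoid receptor gene Nr3c1 at 0.09 and Foxo3 at -0.10.

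**Figure D4:**
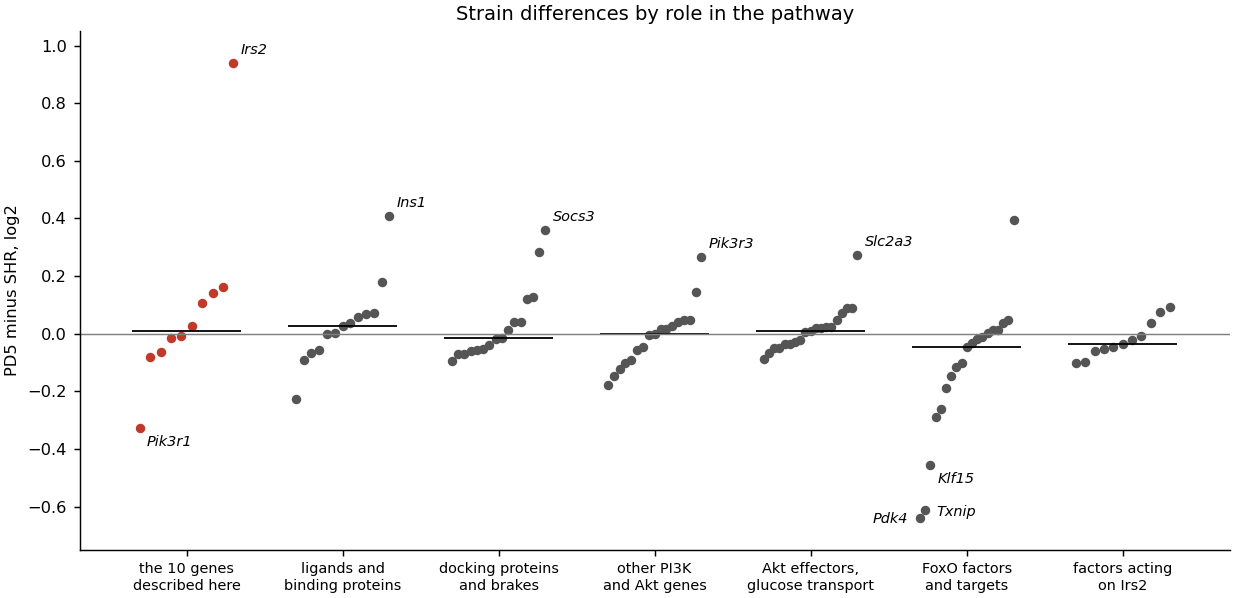
PD5 minus SHR difference (log2) of each gene, 1 point per gene, for the 10 genes described here in red and for 6 lists of other pathway genes in grey, with the median of each as a black line. Medians lie between -0.04 and 0.03, and outside the 10 genes Txnip at -0.61 and Pdk4 at -0.64 lie farthest from 0.

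For comparison by animal, 2 further groups of genes, chosen with earlier results of these data known, are given beside Irs2 and Pik3r1. Of 11 listed immediate early genes, which cells switch on within a short time of a stimulus, 10 were measured. Of these, 10 were above 0, as were 49.9% of all genes, and 2 rose in limma, where 0.052% of all genes passed in either direction. Their mean log2 value was 8.14 in PD5 207, 8.56 in 209, 7.97 in 210 and 8.01 in 212, and 7.39, 7.29, 6.90 and 7.10 in SHR 213, 215, 218 and 219. PD5 209 was highest in this mean and in Irs2, whereas PD5 207 was second in this mean and lowest of PD5 in Irs2. The second group, of 10 glucocorticoid-responsive genes, shares Pdk4 and Klf15 (at -0.46) with the FoxO list above, so the 2 are not separate observations. Of its genes, 10 were below 0, as were 50.1% of all genes, and 2 fell in limma. Their mean was 8.34 to 8.43 in the 4 PD5 animals and 8.89, 8.79, 9.06 and 9.41 in SHR 213, 215, 218 and 219. SHR 219 was highest in this mean and in Pik3r1, while PD5 207, the highest PD5 animal in Pik3r1, was at 8.38 in this mean. The part of these groups, and of the macrophage, mesothelial, atrial and adipocyte markers, in the Irs2 and Pik3r1 differences was not tested.

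**Figure D5:**
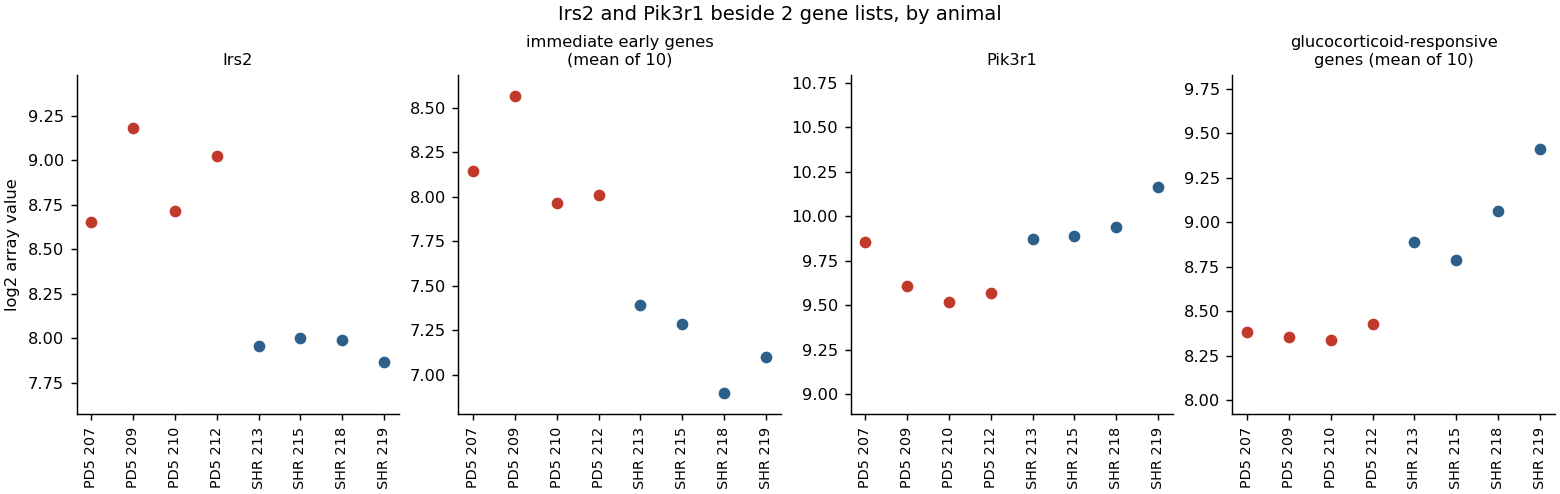
Log2 values by animal, PD5 in red and SHR in blue, of Irs2, the mean of 10 immediate early genes, Pik3r1 and the mean of 10 glucocorticoid-responsive genes; each panel spans 1.9 log2 units. Irs2 and the immediate early mean are above SHR in every PD5 animal, and Pik3r1 and the glucocorticoid mean are below it.

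Likeness to Irs2 was measured over the 8 animals as the root mean square difference between log2 values, each gene centred on its own mean. The nearest 5 genes were Atf3 at 0.20, Egr3 at 0.24, Has2 at 0.25, Slitrk6 at 0.26 and Cryge at 0.26, beside a median of 0.51 over all genes. Atf3 and Egr3 encode stress- and activity-induced transcription factors and Has2 a hyaluronan synthase. Atf3 is also in the immediate early list above, so its nearness and that list are not separate observations. Atf3 was at 7.56, 8.43, 7.70 and 7.92 in PD5 and at 6.73, 7.22, 6.83 and 7.20 in SHR, with PD5 209 highest and PD5 207 lowest of PD5 in Atf3, as in Irs2 and Egr3. That order did not hold in Has2, where PD5 207 and 209 tied as highest, in Slitrk6, where PD5 212 was highest, or in Cryge, where PD5 209 was lowest. Cryge, a lens crystallin gene, lies at 2.07 to 2.86 on 1 probe set, too low for a size to be read. Of the other members, Irs1 was nearest to Irs2 at 0.44 and Pik3r1 farthest at 0.68. All 5 nearest genes share with Irs2 the strain difference on which it was chosen.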

How the data were processed

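Total RNA of 8 left ventricles, 4 PD5 and 4 SHR by the strain in the labels, was hybridised to 1 array each; RNA integrity numbers were above 8, per the labels' protocols. The authors deposited log2 array values per probe set. Per the submitters' processing notes, Partek 6.6 was used. The labels do not state its background correction, normalization or summary settings. Values were used as deposited. Of 220231 probe sets, 166557 named 1 gene, 1631 several and 52043 none in the platform annotation. Symbols were updated through the GRCr8 gene table (14377 current, 2837 replaced through a synonym, 95 unmatched), giving 17309 genes.

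PD5 minus SHR was fitted over all genes with limma 3.58.1 in R 4.3.3 (lmFit, eBayes), two-sided. The p-values were adjusted by Benjamini-Hochberg over all genes, with a threshold of 0.05 and no filter on dim genes. The fit was tested on simulated data. The number of arrays limits the precision, and animals are the replicates. The members and lists were chosen with earlier results of these data known. The genes named are the 10 members, the 3 genes with the smallest unadjusted p in each of the 6 pathway lists with any that passed, and the 5 profiles nearest to Irs2. Klf15 is named as a gene that the FoxO and glucocorticoid lists share. Alternatives changed the probe set summary, the normalization, the filter, the variance model and the arrays used.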

Additional observations from a re-analysis of the deposited data

Results flagged for a closer look

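An animal stood apart from the other 3 of its strain, by Dixon's criterion for 4 samples, in 7 of 94 sets of values examined. Chance gives about 1 in 20 for a single set, and over all genes a PD5 animal stood apart in 5.40%. The 94 sets share animals and some genes, so they are not independent. PD5 207 was apart in 3 of the 10 members, with Insr at 8.96 (the others 8.76 to 8.78), Igf1r at 8.33 (8.13 to 8.15) and Foxo1 at 8.23 (8.41 in each of the others), while it was apart in 1.29% of all genes. PD5 210 was apart with Igfals at 4.35 (5.08 to 5.16), Pdk4 at 10.66 (10.36 to 10.38) and the mean of the adipocyte markers at 7.31 (5.98 to 6.15). SHR 213 was apart with Rps6kb1 at 8.86 (8.68 to 8.70).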

How the results depend on the processing

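The Irs2 difference was above 0 in 16 of 16 alternatives and past the threshold in 3 of them, namely quantile normalization, the dimmest 25% of genes left out (adjusted p = 0.0114) and the trended robust variance model (adjusted p = 0.00102, limma). It did not pass with the median of the probe sets (0.94), the brightest probe set (0.89), median centring (0.95), no moderation (0.94, adjusted p = 0.331, the highest) or without both PD5 210 and SHR 219 (0.97), nor with any 1 array left out (0.84 to 1.02). Under these settings 0 members passed, and where Irs2 passed it was the 1 member that did. Genes called numbered 9; the count was 0 with the brightest probe set, with no moderation and without both PD5 210 and SHR 219, 5 with median centring, 47 with the trended robust model and 1 to 7 with 1 array left out. Pathway genes called numbered 2 with the trended robust model and 0 in every other alternative run, 0 to 0 with 1 array left out. Of 241 recomputed values of other members and list medians, 7 moved by more than the spread between animals, among them Akt2, at -0.08 with its brightest probe set, and Foxo1, at 0.03 with the median of its probe sets. The causes were not tested. No paired analysis was possible because the strains share no animal number. With 4 arrays per strain, and no detection calls or scanner signals used here, signal over background could not be judged.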
